A study of Rattus norvegicus with 8 samples.

Results

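Proximal tubule transport and brush border genes were described in rat kidney allografts as a set of 43 genes, comprising carriers for phosphate, glucose, organic ions, amino acids, dicarboxylates, sulfate, protons and bicarbonate, the endocytic receptors, brush border peptidases, and an enzyme, regulator and scaffold group. The members were chosen by name and role, with earlier results of these data known. A probe counted when its gene name, an older synonym or its RefSeq accession stood for a member. Of the 43 genes, 42 had a probe (52 probes in all), and 40 were tested among 24461 genes. Slc6a19 was named on no probe. Slc26a1 and Mep1b each had an outlier spot on 1 array and are given as levels only.

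Kidneys of male Dark Agouti (DA; RT1a) rats were transplanted orthotopically into bilaterally nephrectomized male Lewis (LEW; RT1l) rats after 25 min at 4 °C in UW solution, and total RNA was taken 24 h after transplantation. All rats were inbred and weighed 120 to 250 g, and their ages were not given in the sources used here. Each of 4 groups had 2 biological replicates, each on a 1-colour array. Donors of the high-difference group were 20 to 50% lighter than their recipients. Donors of the low-difference group were 0 to 20% lighter. The anti-IL6R group was a high-difference group whose recipients received 500 µg of a neutralizing antibody against the interleukin-6 receptor intravenously immediately after transplantation. The prednisolone group was a high-difference group given 15 mg/kg of prednisolone, a glucocorticoid, intravenously at the same point. All groups therefore shared the MHC mismatch, the surgery and the cold storage, and an untransplanted kidney was not analysed here. The RNA came from graft tissue that holds every kidney cell type and recipient cells that entered it, so fewer proximal tubule cells and less RNA per cell cannot be told apart.

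The proximal tubule reabsorbs most of the filtered glucose, amino acids, phosphate and bicarbonate, and takes up filtered protein by endocytosis. Sodium-coupled carriers in the apical brush border draw solutes in, basolateral carriers pass them to the blood, and many organic anion and cation transporters, though not all, work in the secretory direction. The transcription factor HNF4A maintains much of this gene program, and the proximal tubule, above all its straight late segment, is known for its sensitivity to interrupted blood flow.

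Levels are log2 processed signals minus the 75th percentile of the same array, so that 0 is that percentile. A level is compared only with levels of the same probe. The proximal tubule markers Lrp2, Cubn, Slc5a2, Slc34a1, Fbp1 and Aqp1 were well above background on all 8 arrays, as were all 40 members tested. Between 64.5 and 74.0% of gene spots were well above background on an array. The share was 66.5 and 65.3% (high), 71.7 and 72.1% (low), 71.5 and 74.0% (anti-IL6R), and 70.2 and 64.5% (prednisolone). Both high-difference arrays were thus below both low-difference arrays, and the part of this in the differences was not tested. Both untreated groups lay on one slide and both treated groups on another, so each treated group's difference from the high-difference group cannot be told apart from the slide, whereas high against low difference and anti-IL6R against prednisolone were within a slide. Replicates differed more for the members than for all genes tested, and in 2 groups far more. The median absolute difference between the prednisolone replicates was 1.60 log2 for the members and 0.43 for all genes tested, and between the high-difference replicates 0.90 and 0.28. Corresponding values were 0.56 and 0.25 in the low-difference group and 0.40 and 0.22 in the anti-IL6R group. High-difference replicate 2 was below replicate 1 for 36 of 40 members, while 45.3% of all genes were higher on replicate 1. This order was not particular to the members. It held for 51 of 61 other proximal tubule genes tested, by a median of 0.58 log2 against 0.90 for the members. It also held for 10 of 11 macrophage and monocyte markers, but for 6 of 13 T and NK cell markers. Among all 8 arrays, high-difference replicate 2 was the lowest for 15 members, prednisolone replicate 1 for another 15, and prednisolone replicate 2 for 8.

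Promoter sequence was searched for the core motif of HNF4, since Hnf4a is a member. RefSeq start sites on the GRCr8 assembly gave a window of 300 bases (250 before and 50 after the start) for 41 of the 43 members, with Slc22a6 and Slc1a1 unmatched. The HNF4 core AAAGTCC, on either strand, was found in 5 of 41 member promoters (12.2%) and in 4.64% of 27457 promoters of the same length, and a match is a description only. The bases before the start are shown 5′ to 3′ for the 4 members that hold the core and were tested, with the match in capitals:
Slc34a1, chr17:9238984-9239233, minus strand: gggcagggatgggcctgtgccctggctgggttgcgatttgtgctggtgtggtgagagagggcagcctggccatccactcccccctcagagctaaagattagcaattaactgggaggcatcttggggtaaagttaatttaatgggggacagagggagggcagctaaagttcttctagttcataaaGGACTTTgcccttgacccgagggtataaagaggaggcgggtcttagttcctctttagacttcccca
Pdzk1, chr2:187064745-187064994, plus strand: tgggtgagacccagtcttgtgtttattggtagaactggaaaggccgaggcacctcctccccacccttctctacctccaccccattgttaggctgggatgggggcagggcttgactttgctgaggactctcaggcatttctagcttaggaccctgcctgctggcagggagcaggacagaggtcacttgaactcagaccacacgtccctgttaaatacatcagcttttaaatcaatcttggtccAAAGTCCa
Slc3a1, chr6:15394750-15394999, minus strand: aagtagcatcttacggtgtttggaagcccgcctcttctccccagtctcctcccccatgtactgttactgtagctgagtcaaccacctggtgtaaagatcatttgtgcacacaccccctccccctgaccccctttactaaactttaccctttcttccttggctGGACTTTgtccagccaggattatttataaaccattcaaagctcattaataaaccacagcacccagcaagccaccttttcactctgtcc
Slc5a1, chr14:81843085-81843334, minus strand: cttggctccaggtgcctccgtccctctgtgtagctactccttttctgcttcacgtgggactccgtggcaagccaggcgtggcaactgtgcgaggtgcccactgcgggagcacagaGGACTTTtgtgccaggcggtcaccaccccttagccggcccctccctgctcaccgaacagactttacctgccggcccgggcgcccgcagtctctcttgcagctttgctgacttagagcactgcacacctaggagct
The members that hold the core differed widely in size between the untreated groups. The high-minus-low difference was -2.73 log2 for Slc34a1, -1.46 for Pdzk1, -0.21 for Slc3a1 and -0.05 for Slc5a1. Mep1b, with no difference to give, also held it.

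The comparison of high with low weight difference asks how the proximal tubule genes differ in a graft from a much smaller donor. More members lay lower than higher in the high-difference group, and the differences ran in both directions. The phosphate carrier Slc34a1, the peptidase Dpep1, the peptide carrier Slc15a2, the enzyme Miox and the anion transporter Slc22a6 had the lower levels, while the export pump Abcc2, the glucose carrier Slc2a2 and the anion carriers Slc17a1 and Slc17a3 had the higher ones. The median high-minus-low difference over the 40 members was -0.53 log2, against 0.07 over all genes tested. It was below 0 for 26 members (65%), against 44% of all genes, and above 0 for 14, against 56%. Groups did not overlap for 24 members, 17 lower and 7 higher, and the corresponding shares of all genes were 56.5% without overlap, 23% lower and 33.5% higher.

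No gene passed an adjusted p under 0.05 with limma and Benjamini-Hochberg adjustment over all genes (0 members, 0% of all genes). At an unadjusted p under 0.05 there were 3588 genes (14.7%), among them 9 members lower (6.43% of all genes were lower at this threshold) and 3 higher (8.24%). The members' smallest adjusted p was 0.28. Leaving out high-difference replicate 1 gave a median of -1.01 with 31 members below 0, and leaving out replicate 2 gave -0.14 with 22 below 0. Over all genes, some passed the adjusted threshold when high-difference replicate 1 or 1 prednisolone array was left out, and none of these calls was a member.

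After anti-IL6R, the median anti-IL6R-minus-high difference of the members was 0.44 log2, against -0.09 for all genes, with 26 members above 0 (43.2% of all genes) and 14 below 0 (56.8%). Groups did not overlap for 28 members, 18 higher and 10 lower, against 59.8% of all genes, 23.4% higher and 36.3% lower. With limma, 0 members and 0% of all genes passed the adjusted threshold, and 4332 genes (17.7%) had an unadjusted p under 0.05, including 7 members higher (7.09% of all genes) and 5 lower (10.6%). The smallest adjusted p of a member was 0.18. Without high-difference replicate 2 the median was 0.03 with 21 members above 0, and without replicate 1 it was 0.91 with 28 above 0. Some genes passed the adjusted threshold when high-difference replicate 1 or 1 prednisolone array was left out. Slc2a2 was the only member among them, in each fit that left out 1 prednisolone array.

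After prednisolone, the median prednisolone-minus-high difference was -0.15 log2, against -0.08 for all genes, with 18 members above 0 (42.3% of all genes) and 22 below 0 (57.7%). Groups did not overlap for 11 members, 3 higher and 8 lower, against 38.9% of all genes, 13.9% higher and 25% lower. With limma, 0 members and 0% of all genes passed the adjusted threshold, and 2892 genes (11.8%) had an unadjusted p under 0.05, including 0 members higher (4.25% of all genes) and 4 lower (7.58%). The smallest adjusted p of a member was 0.24. The median took the opposite sign, 0.32, without high-difference replicate 1, and was -0.49 without replicate 2. Genes passing the adjusted threshold numbered 36 without high-difference replicate 1, 224 without prednisolone replicate 1 (members Slc2a2 and Abcc2) and 21 without prednisolone replicate 2. The comparisons of both treated groups and of the low-difference group with the high-difference group share the same 2 high-difference arrays, so their values are given side by side and not as support for each other.

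Between the treated groups, the median anti-IL6R-minus-prednisolone difference was 0.50 log2, against -0.01 for all genes, and 36 of 40 members lay above 0 (48.1% of all genes) and 4 below 0 (51.9%). Groups did not overlap for 10 members, all higher after anti-IL6R, against 26.2% of all genes, 11.9% higher and 14.3% lower. With limma, 0 members and 0% of all genes passed the adjusted threshold, and 831 genes (3.4%) had an unadjusted p under 0.05, among them 1 member, Dpep1, which was higher (2.58% of all genes), and 0 members lower (0.822%). The count of 36 was 24 without prednisolone replicate 1 and 30 without replicate 2, and 130 and 5 genes then passed the adjusted threshold, with 0 members among them.

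**Figure D1:**
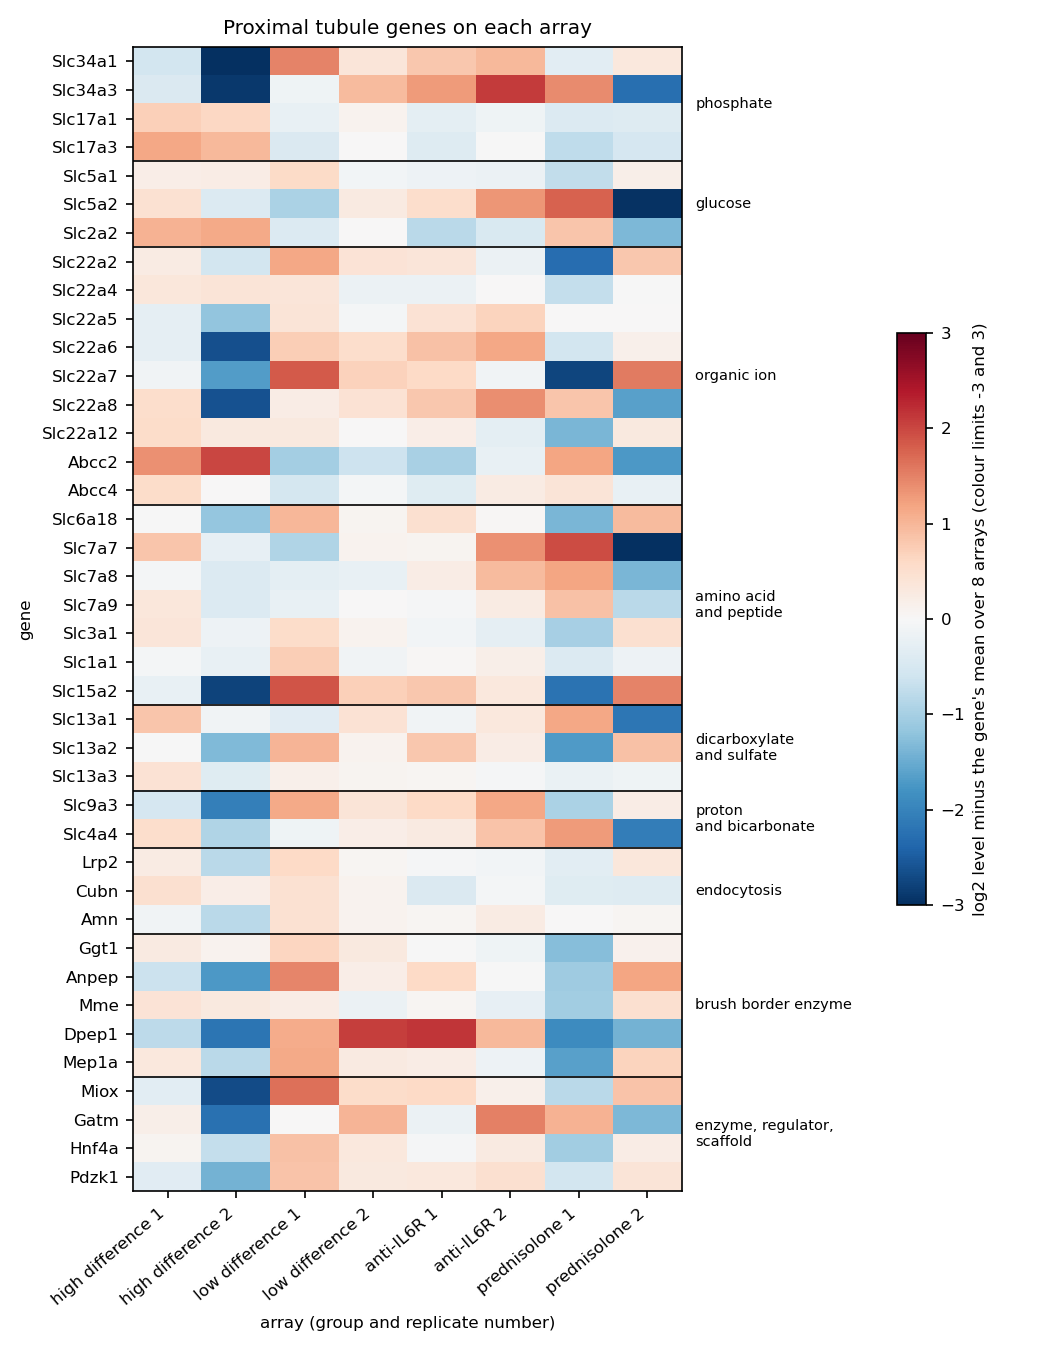
Each row is 1 of the 40 genes tested, grouped by role, and each column 1 of the 8 arrays. Colour is the log2 level minus the gene's mean over 8 arrays, limited to -3 and 3. High-difference replicate 2 is blue for many members, and both prednisolone columns show opposite colours for many rows.

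Among the phosphate carriers the sodium-phosphate cotransporters and the SLC17 carriers differed in opposite directions. Slc34a1, the main apical sodium-phosphate cotransporter, stood at 2.90 and 0.41 in the high-difference group, 4.94 and 3.83 in the low-difference group, 4.26 and 4.43 after anti-IL6R, and 3.15 and 3.77 after prednisolone. Both high-difference arrays were below all others. The difference was -2.73 ± 0.80 (SE) for high minus low, 6.63-fold lower, with an adjusted p of 0.31 by limma. It was 2.69 ± 0.80 for anti-IL6R minus high (adjusted p = 0.22) and 1.81 ± 0.80 for prednisolone minus high (adjusted p = 0.44). Without high-difference replicate 2 these differences were -1.48, 1.44 and 0.56, and without replicate 1 they were -3.97, 3.94 and 3.05. A second, dimmer probe of Slc34a1 gave -3.66, 4.32 and 2.25 for the same comparisons.

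Slc34a3, a related cotransporter for phosphate, stood at 0.49 and -1.97 (high), 0.80 and 1.87 (low), 2.20 and 3.03 (anti-IL6R), and 2.36 and -1.33 (prednisolone). The high-difference arrays were below the low-difference and anti-IL6R arrays while the prednisolone pair was widely spaced and overlapped them. Its anti-IL6R-minus-high difference was 3.35 ± 1.31 (adjusted p = 0.27), and leaving out high-difference replicate 2 gave 2.12.

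Slc17a1 and Slc17a3, neighbouring genes on chromosome 17 with 0 protein-coding genes between them in RefSeq, encode carriers first described for phosphate that also handle urate and other organic anions. Slc17a1 stood at 3.40 and 3.30 (high), 2.47 and 2.80 (low), 2.39 and 2.56 (anti-IL6R), and 2.28 and 2.30 (prednisolone). Slc17a3 stood at 5.70 and 5.52, 4.12 and 4.57, 4.17 and 4.54, and 3.78 and 4.04 in the same order. For both genes the high-difference arrays were above all 6 others, and replicates lay close together. The high-minus-low difference was 0.72 ± 0.19 for Slc17a1 (adjusted p = 0.31) and 1.26 ± 0.24 for Slc17a3 (adjusted p = 0.28). Prednisolone minus high was -1.06 and -1.70, and the latter had the smallest adjusted p of any member in that comparison (0.24 by limma). Without high-difference replicate 2 the high-minus-low differences were 0.77 and 1.36, and without replicate 1 they were 0.67 and 1.17.

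**Figure D2:**
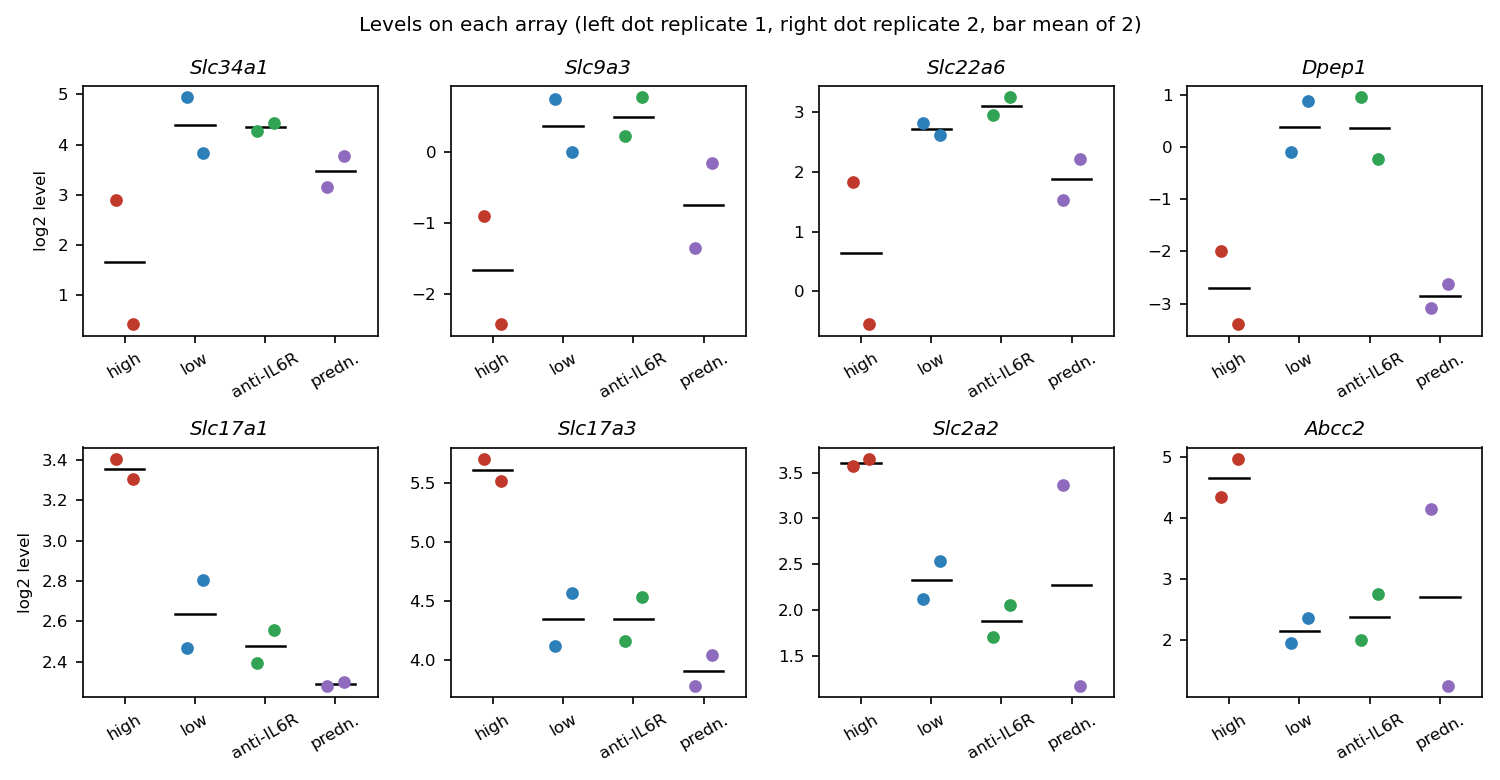
Log2 levels of 8 members on each array; dots are single arrays and bars are means of 2. The upper 4 genes are lowest on the high-difference arrays among the untreated and anti-IL6R arrays, and prednisolone overlaps them for Slc9a3, Slc22a6 and Dpep1. The lower 4 genes are highest there, except that prednisolone replicate 1 comes near for Slc2a2 and Abcc2.

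The glucose carriers had a median high-minus-low difference of 0.37 over 3 genes, and 1 of the 3 was without overlap (56.5% of all genes). Slc2a2, the basolateral facilitated glucose carrier GLUT2, stood at 3.57 and 3.65 (high), 2.12 and 2.54 (low), 1.71 and 2.06 (anti-IL6R), and 3.37 and 1.17 (prednisolone). Both high-difference values exceeded the other 6. The difference was 1.28 ± 0.65 for high minus low (adjusted p = 0.39) and -1.73 ± 0.65 for anti-IL6R minus high (adjusted p = 0.26). Its second probe gave 1.13 and -1.64. Leaving out either prednisolone array kept anti-IL6R minus high at -1.73 and lowered its SE, which all groups share in the fit, to 0.22 (adjusted p = 0.049 by limma). Prednisolone minus high for Slc2a2 was -1.34 ± 0.65 (adjusted p = 0.46) as fitted, -2.44 ± 0.27 without prednisolone replicate 1 (adjusted p = 0.028) and -0.24 without replicate 2. The array left alone in its group is assumed to vary like those of the other groups.

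Slc5a2, the apical low-affinity sodium-glucose cotransporter SGLT2 of the early segment, stood at 5.89 and 5.03 (high), 4.48 and 5.70 (low), 5.98 and 6.75 (anti-IL6R), and 7.22 and 2.46 (prednisolone). The prednisolone arrays were the highest and the lowest of 8. Its high-minus-low difference of 0.37 ± 1.42 was within the spread between replicates, and it was -0.06 and 0.80 without high-difference replicate 1 and replicate 2. Slc5a1, the high-affinity cotransporter SGLT1 of the late segment, stood at -2.03 and -2.0 (high), -1.64 and -2.30 (low), -2.37 and -2.39 (anti-IL6R), and -2.97 and -2.04 (prednisolone). The untreated groups overlapped, with a difference of -0.05 ± 0.35.

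The organic ion transporters had a median high-minus-low difference of -0.89 over 9 genes, and 0.21 without high-difference replicate 2. Without overlap, 4 were lower (23% of all genes) and 3 higher (33.5% of all genes). Slc22a6 (OAT1), the basolateral anion exchanger that starts organic anion secretion, stood at 1.82 and -0.56 (high), 2.83 and 2.62 (low), 2.95 and 3.25 (anti-IL6R), and 1.52 and 2.22 (prednisolone). All 4 low-difference and anti-IL6R values exceeded both high-difference values. The differences were -2.09 ± 0.72 for high minus low (adjusted p = 0.32) and 2.47 ± 0.72 for anti-IL6R minus high (adjusted p = 0.22), and without high-difference replicate 2 they were -0.90 and 1.28.

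Slc22a8 (OAT3), the neighbour of Slc22a6 on chromosome 1 with a similar basolateral role, stood at -1.10 and -4.27 (high), -1.42 and -1.20 (low), -0.83 and -0.25 (anti-IL6R), and -0.80 and -3.26 (prednisolone). Only replicate 2 of the high-difference group was low. The high-minus-low difference of -1.37 ± 1.15 became 0.21 without that array.

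Slc22a2 (OCT2), the basolateral organic cation carrier, stood at 2.13 and 1.34 (high), 3.05 and 2.28 (low), 2.23 and 1.71 (anti-IL6R), and -0.41 and 2.69 (prednisolone). The high-minus-low difference was -0.93 ± 0.95 without overlap, and -0.54 without high-difference replicate 2. Slc22a5 (OCTN2), the apical carnitine carrier, stood at 0.66 and -0.26 (high), 1.32 and 0.86 (low), 1.36 and 1.60 (anti-IL6R), and 0.94 and 0.94 (prednisolone). On this brighter probe the high-difference arrays were below all 6 others, by -0.89 ± 0.34 against low (adjusted p = 0.32), and anti-IL6R minus high was 1.28 ± 0.34 (adjusted p = 0.21). A second, dimmer probe gave -0.73 for high minus low, 0.67 for anti-IL6R minus high and 0.21 for prednisolone minus high. There prednisolone replicate 1 (-0.95) lay below high-difference replicate 1 (-0.53). With high-difference replicate 2 left out, Slc22a5 on the brighter probe differed by -0.43 for high minus low and 0.82 for anti-IL6R minus high. Its neighbour Slc22a4, with 1 protein-coding gene between them on chromosome 10, stood at 0.16 and 0.20 (high), 0.19 and -0.36 (low), -0.37 and -0.18 (anti-IL6R), and -0.90 and -0.20 (prednisolone). Slc22a4 differed by 0.26 between the untreated groups and by -0.73 for prednisolone minus high (adjusted p = 0.42).

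Slc22a12 (URAT1), the apical urate exchanger, stood at 3.47 and 3.23 (high), 3.21 and 2.94 (low), 3.13 and 2.64 (anti-IL6R), and 1.55 and 3.22 (prednisolone). Its high-minus-low difference was 0.28 ± 0.52, and 0.15 without high-difference replicate 1. Abcc2 (MRP2), the apical export pump for conjugated anions, stood at 4.33 and 4.97 (high), 1.95 and 2.35 (low), 1.99 and 2.75 (anti-IL6R), and 4.15 and 1.25 (prednisolone). Both high-difference values were the highest of 8, followed by prednisolone replicate 1. The high-minus-low difference was 2.50 ± 0.88, 5.64-fold higher (adjusted p = 0.32), and anti-IL6R minus high was -2.28 ± 0.88 (adjusted p = 0.27). Without high-difference replicate 1 and without replicate 2 the former was 2.81 and 2.18. Prednisolone minus high was -1.95 ± 0.88 for Abcc2 (adjusted p = 0.45), -3.40 ± 0.43 without prednisolone replicate 1 (adjusted p = 0.041) and -0.50 without replicate 2. Slc22a7 and Abcc4 differed by -2.16 and 0.58 for high minus low, and a second probe of Abcc4 gave 0.14. Slc22a7 differed by -1.37 without high-difference replicate 2. For anti-IL6R minus high the Abcc4 probes differed in sign, -0.34 and 0.34.

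The amino acid and peptide carriers had a median high-minus-low difference of -0.21 over 7 genes tested, 2 of them lower without overlap (23% of all genes). Slc15a2 (PEPT2), the high-affinity peptide carrier of the late segment, stood at 0.91 and -1.65 (high), 3.02 and 1.84 (low), 1.93 and 1.45 (anti-IL6R), and -1.10 and 2.61 (prednisolone). No high-difference array reached a low-difference or anti-IL6R array, and the prednisolone values spread from the low to the high end. High minus low was -2.80 ± 1.32 (adjusted p = 0.36) and -1.53 without high-difference replicate 2.

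Slc3a1 (rBAT) and Slc7a9 (b0,+AT) form the apical cystine carrier. Slc3a1 stood at 8.72 and 8.22 (high), 8.90 and 8.46 (low), 8.29 and 8.10 (anti-IL6R), and 7.37 and 8.84 (prednisolone), and its spot was saturated on 1 array. Slc7a9 stood at 5.35 and 4.59 (high), 4.78 and 5.01 (low), 4.97 and 5.26 (anti-IL6R), and 5.89 and 4.19 (prednisolone). The untreated groups overlapped for both, with differences of -0.21 ± 0.48 and 0.07 ± 0.56, which were 0.04 and 0.45 without high-difference replicate 2. On the prednisolone arrays these partners were ordered in opposite ways.

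Slc7a7, a light chain of the basolateral carrier for cationic amino acids, stood at 0.62 and -0.47 (high), -1.10 and -0.11 (low), -0.14 and 1.17 (anti-IL6R), and 1.76 and -3.42 (prednisolone). Its prednisolone arrays were the highest and the lowest of 8, 5.18 log2 apart, the widest gap between replicates of any member. Slc6a18, Slc7a8 and Slc1a1 differed by -1.13, 0.03 and -0.46 for high minus low, and of these Slc6a18 was without overlap (-0.56 without high-difference replicate 2).

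The dicarboxylate and sulfate carriers had a median high-minus-low difference of -0.08 over 3 genes tested. Slc13a3 (NaDC3), the basolateral dicarboxylate carrier, stood at 8.76 and 7.97 (high), 8.48 and 8.40 (low), 8.39 and 8.29 (anti-IL6R), and 8.12 and 8.18 (prednisolone), and its spot was saturated on 1 array. Its range over 8 arrays, 0.79 log2, was the smallest of the members tested. Slc26a1, the basolateral sulfate exchanger, stood at 4.98 on high-difference replicate 1, 5.16 and 5.03 (low), 4.73 and 4.80 (anti-IL6R), and 5.24 and 4.46 (prednisolone). Slc13a1 and Slc13a2, the apical sulfate and citrate carriers, differed by 0.32 and -1.22 for high minus low, and Slc13a2 was without overlap (-0.56 without high-difference replicate 2). Slc13a1 differed by -0.14 without high-difference replicate 1.

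Of the acid-base carriers, Slc9a3 (NHE3), the apical sodium-proton exchanger, stood at -0.91 and -2.43 (high), 0.74 and -0.01 (low), 0.21 and 0.76 (anti-IL6R), and -1.35 and -0.16 (prednisolone). Low-difference and anti-IL6R values all exceeded the high-difference values, which overlapped prednisolone. High minus low was -2.04 ± 0.62, 4.10-fold lower (adjusted p = 0.31), and anti-IL6R minus high was 2.16 ± 0.62 (adjusted p = 0.22). These became -1.27 and 1.40 when high-difference replicate 2 was left out. Its basolateral partner Slc4a4 (NBCe1), which returns bicarbonate to the blood, stood at 2.17 and 0.75 (high), 1.52 and 1.84 (low), 1.91 and 2.50 (anti-IL6R), and 2.93 and -0.44 (prednisolone). The untreated groups overlapped for Slc4a4, with a difference of -0.22 ± 1.05, which was 0.49 without high-difference replicate 2.

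The endocytic receptor genes had a median high-minus-low difference of -0.61 over 3 genes, 1 of them lower without overlap (23% of all genes). Lrp2 (megalin), the main scavenger receptor, stood at 7.42 and 6.35 (high), 7.76 and 7.22 (low), 7.12 and 7.08 (anti-IL6R), and 6.83 and 7.50 (prednisolone), with overlap and a high-minus-low difference of -0.61 ± 0.42. That difference was -0.07 without high-difference replicate 2 and -1.14 without replicate 1. Cubn (cubilin), its partner receptor, stood at 5.54 and 5.26 (high), 5.52 and 5.17 (low), 4.64 and 5.01 (anti-IL6R), and 4.70 and 4.67 (prednisolone). Both treated groups lay below both untreated groups. Cubn differed by 0.06 ± 0.23 for high minus low, by -0.57 ± 0.23 for anti-IL6R minus high (adjusted p = 0.27) and by -0.72 ± 0.23 for prednisolone minus high (adjusted p = 0.36), in comparisons that coincide with the slide.

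Amn (amnionless), which carries cubilin to the membrane, stood at 5.70 and 5.0 (high), 6.27 and 5.92 (low), 5.89 and 6.05 (anti-IL6R), and 5.83 and 5.87 (prednisolone). Both high-difference values were the lowest of 8, by -0.74 ± 0.28 against low (adjusted p = 0.32) and -0.39 without high-difference replicate 2.

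Among the brush border enzymes, Dpep1, the membrane dipeptidase, had the largest difference of any member tested both between the untreated groups and between the treated groups. It stood at -1.99 and -3.40 (high), -0.10 and 0.87 (low), 0.95 and -0.23 (anti-IL6R), and -3.08 and -2.62 (prednisolone). All 4 high-difference and prednisolone arrays lay below all 4 others. High minus low was -3.08 ± 0.62, 8.46-fold lower (adjusted p = 0.29), and anti-IL6R minus high was 3.05 ± 0.62 (adjusted p = 0.19). Within the slide of the treated groups, anti-IL6R minus prednisolone was 3.21 ± 0.62 (adjusted p = 0.96), and prednisolone minus high was -0.16 ± 0.62. High minus low was -2.38 without high-difference replicate 2, and anti-IL6R minus prednisolone was 2.98 and 3.44 without prednisolone replicate 1 and replicate 2.

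Anpep, aminopeptidase N, stood at 4.19 and 3.11 (high), 6.28 and 5.02 (low), 5.43 and 4.82 (anti-IL6R), and 3.76 and 6.02 (prednisolone). The high-difference arrays were below the low-difference and anti-IL6R arrays, by -2.0 ± 0.82 against low (adjusted p = 0.34) and -1.46 without high-difference replicate 2. A second, dimmer probe of Anpep gave only -0.20 for high minus low. On it the untreated groups overlapped, at -0.81 and -0.88 (high) and -0.83 and -0.46 (low). Anti-IL6R minus high was 0.47 on the dimmer and 1.48 on the brighter probe, and prednisolone minus high was -0.04 and 1.24. The probes thus disagree in size and in overlap.

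Mme (neprilysin) stood at 3.67 and 3.55 (high), 3.48 and 3.09 (low), 3.31 and 3.00 (anti-IL6R), and 2.21 and 3.74 (prednisolone), a high-minus-low difference of 0.32 ± 0.48. Ggt1, the gamma-glutamyl transferase of glutathione breakdown, stood at 7.76 and 7.60 (high), 8.14 and 7.79 (low), 7.48 and 7.37 (anti-IL6R), and 6.22 and 7.62 (prednisolone), a difference of -0.28 ± 0.44. The high-difference and low-difference arrays did not overlap for either, and both differences were below their standard errors, which all groups share. For Mme and Ggt1, replicate 1 minus replicate 2 was -1.53 and -1.40 after prednisolone. It was 0.12 and 0.16 in the high-difference group, and 0.39 and 0.35 in the low-difference group. Mep1b, the meprin beta subunit, stood at 1.94 and -0.11 (high), 2.37 on low-difference replicate 2, 2.87 and 2.17 (anti-IL6R), and -0.34 and 3.64 (prednisolone). Mep1a, the alpha subunit, differed by -0.95 ± 0.78 with overlap, and by -0.38 without high-difference replicate 2.

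All 4 genes of the enzyme, regulator and scaffold group were lower in the high-difference group, with a median of -1.50 and 3 of 4 without overlap (23% of all genes were lower without overlap). All 4 were below 0 with either high-difference array left out, with medians of -2.37 without replicate 1 and -0.72 without replicate 2. Miox, which opens the ring of myo-inositol, stood at 3.18 and 0.82 (high), 5.15 and 4.06 (low), 4.11 and 3.67 (anti-IL6R), and 2.70 and 4.36 (prednisolone). Neither high-difference value reached the low-difference or anti-IL6R values. High minus low was -2.61 ± 0.89 (adjusted p = 0.32) and -1.43 without high-difference replicate 2.

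Pdzk1, the scaffold that holds brush border carriers, stood at 4.74 and 3.65 (high), 5.94 and 5.37 (low), 5.39 and 5.56 (anti-IL6R), and 4.52 and 5.45 (prednisolone). High minus low was -1.46 ± 0.46 (adjusted p = 0.31) and anti-IL6R minus high was 1.28 ± 0.46 (adjusted p = 0.25), both without overlap, and they were -0.92 and 0.74 without high-difference replicate 2. Hnf4a, the transcription factor itself, stood at -0.87 and -1.67 (high), -0.07 and -0.63 (low), -0.99 and -0.67 (anti-IL6R), and -1.99 and -0.74 (prednisolone). Its high-minus-low difference was -0.92 ± 0.48 without overlap (adjusted p = 0.40), and anti-IL6R minus high was 0.44 ± 0.48 with overlap. For Hnf4a these were -0.52 and 0.03 without high-difference replicate 2. Gatm, the first enzyme of creatine synthesis, differed by -1.54 ± 1.11 with overlap, and by -0.34 without high-difference replicate 2.

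**Figure D3:**
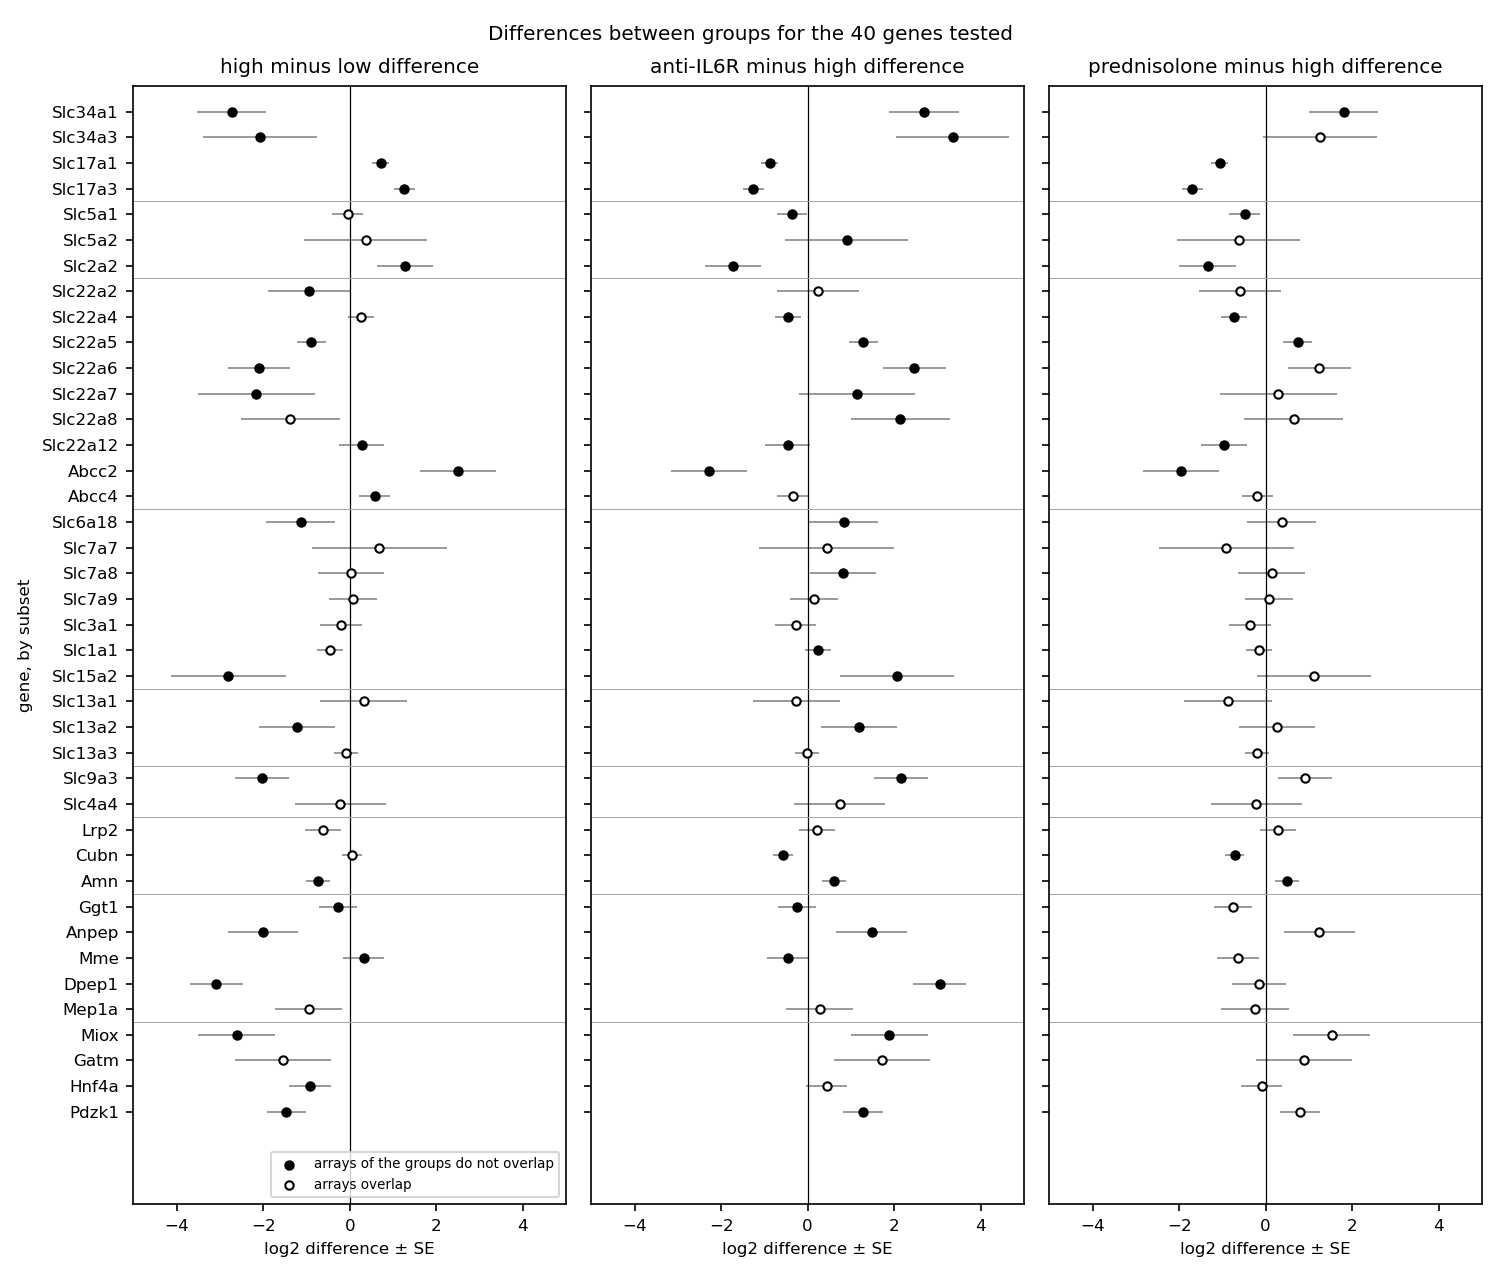
Log2 differences with limma standard errors for the 40 genes tested in 3 comparisons; filled dots mark groups whose arrays do not overlap (24, 28 and 11 genes from left to right). The left and middle panels share the high-difference arrays with opposite sign, so their mirrored look is partly built in.

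By subset, the high-minus-low medians were -0.68 for phosphate, 0.37 for glucose, -0.89 for organic ions, -0.21 for amino acids and peptides, and -0.61 for endocytosis. The anti-IL6R-minus-high medians of the same subsets were 0.91, -0.36, 0.24, 0.44 and 0.22, and the prednisolone-minus-high medians 0.09, -0.62, -0.20, 0.08 and 0.29. In each of these comparisons 2 phosphate carriers lay above 0 and 2 below 0, so the phosphate medians fall between opposed pairs. Without high-difference replicate 2 the high-minus-low medians were -0.04, 0.80, 0.21, 0.04 and -0.07, so that the organic ion and amino acid medians took the opposite sign, as the glucose median did without replicate 1 (-0.03). In the same order, with replicate 2 left out, the anti-IL6R-minus-high medians were 0.26, -0.35, -0.16, 0.16 and -0.32, and the prednisolone-minus-high medians -0.54, -1.05, -0.71, -0.23 and -0.25. No subset was tested against another. Between anti-IL6R and prednisolone the same medians were 0.66, 0.12, 0.54, 0.47 and 0.12, with all 7 amino acid and peptide carriers and all 4 phosphate carriers above 0. Leaving out either prednisolone array kept all 4 phosphate carriers above 0 but 4 of 7 amino acid and peptide carriers, and the glucose median was 0.71 without replicate 1 and -0.85 without replicate 2.

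By membrane side, with no test of the difference, the high-minus-low median was -0.05 for 19 apical and -0.15 for 8 basolateral carriers. These were -0.30 and -0.70 without high-difference replicate 1, and 0.04 and 0.26 without replicate 2. Anti-IL6R minus high was 0.15 and 0.59 on these sides, and -0.23 and -0.04 without high-difference replicate 2. Anti-IL6R minus prednisolone was 0.47 and 0.89, but 0.26 and 1.41 without prednisolone replicate 1, and 0.57 and -0.19 without replicate 2. By segment, the high-minus-low median was 0.07 for 7 members of the early segment (S1 and S2), with 2 below 0, and -0.46 for 5 members of the late segment (S3), all 5 below 0. These medians became 0.49 and -0.37 without high-difference replicate 2, and -0.15 and -0.54 without replicate 1.

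The order of the prednisolone replicates is described by tubule segment, with no test. Over all genes, 46.4% were higher on replicate 1. Of the early-segment members, 6 of 7 were higher on replicate 1, by a median of 2.54 log2, whereas 0 of 5 late-segment members were, with a median of -1.47. All 5 brush border enzymes tested were higher on replicate 2, with a median difference of -1.53 for replicate 1 minus replicate 2. Slc7a7, Slc5a2, Slc34a3, Slc4a4 and Slc13a1 were 5.18, 4.75, 3.69, 3.37 and 3.33 higher on replicate 1, and Slc22a7, Slc15a2 and Slc22a2 were lower there, by -4.30, -3.70 and -3.11. For 7 members, the prednisolone arrays were the lowest and the highest of 8. Markers of other cells differed between the same arrays. All 20 loop and distal nephron markers tested were lower on replicate 1, with a median of -1.60, while 13 of 13 T and NK cell markers (median 1.47), 11 of 11 macrophage and monocyte markers (1.97) and 3 of 3 neutrophil markers (3.53) were higher. The part of these cells in the members' values was not tested. Only 4 of the 13 T and NK cell markers and 2 of the 8 listed neutrophil markers had a probe well above background on all 8 arrays. The mean of the prednisolone group averages a high and a low array for most early-segment members. Prednisolone minus high for Slc5a2 was -0.62 as fitted, -3.0 without prednisolone replicate 1 and 1.76 without replicate 2.

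**Figure D4:**
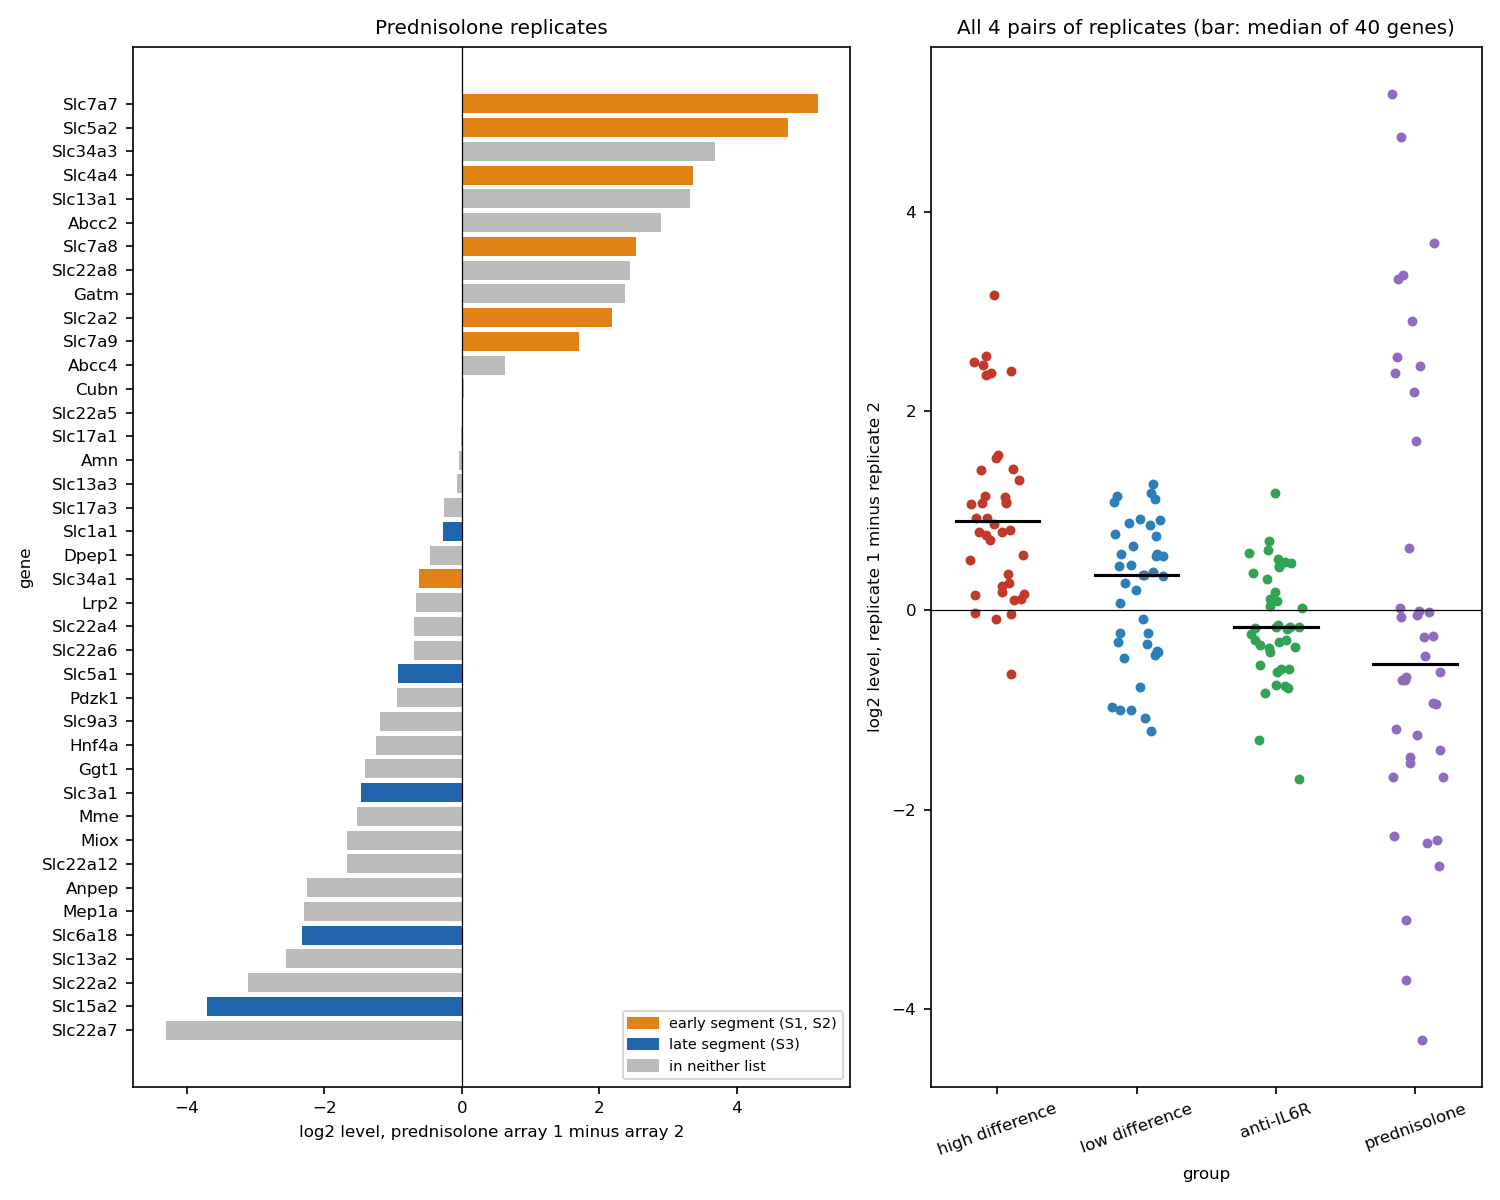
Left, bars give the log2 level on prednisolone array 1 minus array 2 for the 40 genes tested, coloured by tubule segment. Right, dots give replicate 1 minus replicate 2 for the same genes in the 4 groups, with the median as a bar; the spread is widest for prednisolone, and most high-difference dots lie above 0.

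Other genes of the proximal tubule were taken from a list of 65 that holds no member, of which 61 were tested. Of these, 41 were lower in the high-difference than in the low-difference group (44% of all genes), with a median of -0.55. With limma, 0 passed the adjusted threshold (0% of all genes). At an unadjusted p under 0.05, 10 were lower (6.43% of all genes) and 2 higher (8.24%). The 3 with the smallest p were Slc20a1, a ubiquitous phosphate carrier, at 1.21 ± 0.37, Agxt2, an aminotransferase, at -0.86 ± 0.28, and Cyp2e1, a monooxygenase, at -2.73 ± 0.92. Without high-difference replicate 1 the median was -0.91 with 17 above 0, and without replicate 2 it was -0.26 with 24 above 0. For anti-IL6R minus high the median was 0.37 with 37 above 0, but -0.03 with 30 above 0 without high-difference replicate 2 and 0.60 with 44 without replicate 1. In that comparison the 3 with the smallest p were G6pc1, the last enzyme of gluconeogenesis, at 3.34 ± 0.90, Bhmt, of betaine metabolism, at 1.85 ± 0.56, and Ddc, which forms dopamine, at 3.07 ± 0.96. Between anti-IL6R and prednisolone 55 of 61 were above 0, 30 without prednisolone replicate 1 and 44 without replicate 2.

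Markers of other cell types also differed between the untreated groups. The summed linear level of the 20 loop and distal nephron markers tested, in units of the array's 75th percentile signal, was 517 to 570 in the high-difference group, 818 to 1355 in the low-difference group, 568 to 899 after anti-IL6R and 407 to 1093 after prednisolone, and 18 of 20 had a high-minus-low difference below 0 (median -1.04). For the 13 T and NK cell markers, all below 0 (median -1.58), it was 0.73 to 0.77, 2.15 to 2.19, 2.29 to 3.05 and 0.99 to 2.57. For 11 macrophage and monocyte markers, 10 below 0 (median -1.45), it was 17.6 to 25.3, 53.9 to 82.3, 72.4 to 105 and 34.7 to 135. For 7 fibroblast markers, all below 0 (median -1.15), it was 58.3 to 131, 111 to 190, 210 to 225 and 106 to 116. The medians were -0.49 for 9 podocyte, -0.78 for 10 endothelial, -0.67 for 5 red blood cell and 0.33 for 3 neutrophil markers. Tubular injury markers went the other way, with 9 of 11 above 0 (median 0.82), and a summed level of 956 to 1699 in the high-difference group and 696 to 980 in the low-difference group, while 12 ubiquitous genes had a median of 0.18. The members themselves summed to 1148 to 1735 (high), 1528 to 1947 (low), 1438 to 1453 (anti-IL6R) and 1117 to 1567 (prednisolone). Such sums weigh bright probes most, among the members Slc13a3 and Slc3a1, which were each saturated on 1 array. Pvalb and Mpo were above background on no array. The part of these cells in the members' differences was not tested.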

How the data were processed

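Total RNA of 8 grafts was hybridised to 1-colour Agilent rat arrays, 1 per graft, and the scanner output holds spot intensities per the file headers: the authors' Feature Extraction software subtracted background to give the deposited processed signal. The deposited value table is the same intensities times 1 factor per array, whose basis no label or header states. Outlier spots were dropped, spots of a probe averaged, log2 taken and the 75th percentile of each array subtracted. A probe was tested when well above background on both arrays of a group and missing on no array, which kept 28685 of 41012 probes. The brightest probe stood for a gene. All 8 arrays entered 1 limma fit (version 3.58.1, R 4.3.3) with 4 residual and 2.37 prior degrees of freedom, adjusted over 24461 genes at 0.05. The p-values measure the spread between 2 replicates a group. An exact permutation test of 2 against 2 cannot go below p = 0.33 and was not run. The method was tested on simulated data.

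Members, lists and the genes named were chosen with earlier results of these data known. Per-array values were given for a fixed set of members and any with an unadjusted p under 0.05, and 3 related genes by smallest p. Alternatives comprised background correction, normalization, filters, probe choice, the deposited table, the replicate block and leaving out each array. Counts of members by direction, and medians of the subsets and other lists, under these alternatives were chosen after the data were seen. A further motif search and a further marker are not reported here.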

Additional observations from a re-analysis of the deposited data

How the results depend on the processing

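No gene passed the adjusted threshold as fitted. With quantile normalization the counts were 3 (high minus low), 7 (anti-IL6R minus high), 4 (prednisolone minus high) and 2 (anti-IL6R minus prednisolone). Median centring gave 1 and 1 in the comparisons of high with low and of anti-IL6R with high, and the deposited table also 1 and 1. Leaving out each array in turn gave 0 to 39, 0 to 169, 0 to 224 and 0 to 130 genes in that order, and member medians of -1.01 to -0.14, 0.034 to 0.91, -0.49 to 0.32 and 0.16 to 0.58. With 1 array left out, members below 0 for high minus low numbered 22 to 31, a count chosen after seeing the data.

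Processing turned few signs among the 31 tested members with per-array values, and the other members are not covered here. Normexp gave -0.018 for Cubn (high minus low) and 0.044 for Slc13a3 (anti-IL6R minus high). Quantile normalization gave Slc13a3 0.51, Slc3a1 0.25 and Ggt1 0.14 for anti-IL6R minus high, Slc13a3 0.20 for prednisolone minus high, and Lrp2 0.052 for anti-IL6R minus prednisolone, where Slc7a9 was -0.0036 by median centring and by the deposited table. The all-gene median for anti-IL6R minus high was -0.22 with normexp, against -0.09, and 28.4% of genes were then above 0.

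The labels give a replicate number and do not say whether same-numbered replicates were paired. Their deviations correlated between -0.35 and 0.37 over pairs of groups. These correlations cannot decide the question, since genes vary together within a pair of arrays. A replicate block leaves the differences themselves unchanged by construction in this balanced design (medians -0.53, 0.44, -0.15 and 0.50) and alters only their errors. With the block limma called 0 genes in each comparison, and 2864, 3530, 2430 and 736 genes had an unadjusted p under 0.05.

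Ranges with 1 array left out, on the log2 scale, follow for every member whose sign turned. For high minus low, the signs that turned gave ranges of Slc5a1 -0.37 to 0.28, Slc5a2 -0.24 to 0.98, Slc22a4 -0.011 to 0.54, Slc22a8 -2.95 to 0.21, Slc7a9 -0.30 to 0.45 and Slc3a1 -0.46 to 0.042. Further ranges were Slc13a3 -0.47 to 0.32, Slc4a4 -0.93 to 0.49, Cubn -0.12 to 0.23, Slc13a1 -0.14 to 0.78 and Slc7a8 -0.15 to 0.21. For anti-IL6R minus high, the signs that turned gave ranges of Slc22a2 -0.16 to 0.63, Slc7a7 -0.21 to 1.09, Slc7a9 -0.23 to 0.53, Slc13a3 -0.42 to 0.37, Lrp2 -0.32 to 0.75 and Mep1a -0.30 to 0.84. Further ranges were Slc13a1 -0.73 to 0.20. For prednisolone minus high, the signs that turned gave ranges of Slc34a3 -0.59 to 3.10, Slc5a2 -3.0 to 1.76, Slc22a2 -2.15 to 0.96, Slc22a8 -0.93 to 2.23, Slc7a7 -3.50 to 1.68 and Slc7a9 -0.77 to 0.93. Further ranges were Slc3a1 -1.10 to 0.36, Slc15a2 -0.73 to 2.98, Slc13a3 -0.60 to 0.19, Slc4a4 -1.90 to 1.47, Lrp2 -0.25 to 0.82 and Mme -1.40 to 0.13. Further ranges were Dpep1 -0.86 to 0.55, Hnf4a -0.72 to 0.53, Abcc4 -0.51 to 0.11, Gatm -0.33 to 2.08, Mep1a -1.39 to 0.91 and Slc13a1 -2.53 to 0.79. Further ranges were Slc13a2 -1.02 to 1.54, Slc22a7 -1.86 to 2.44, Slc6a18 -0.80 to 1.53 and Slc7a8 -1.13 to 1.41. For anti-IL6R minus prednisolone, the signs that turned gave ranges of Slc5a1 -0.34 to 0.59, Slc5a2 -0.85 to 3.90, Slc2a2 -1.48 to 0.71, Slc22a2 -0.72 to 2.38, Slc22a4 -0.074 to 0.62 and Slc22a12 -0.33 to 1.33. Further ranges were Abcc2 -1.78 to 1.13, Slc7a7 -1.24 to 3.94, Slc7a9 -0.78 to 0.92, Slc3a1 -0.65 to 0.82, Slc15a2 -0.92 to 2.79 and Slc4a4 -0.72 to 2.64. Further ranges were Lrp2 -0.40 to 0.27, Cubn -0.043 to 0.33, Ggt1 -0.20 to 1.21, Anpep -0.89 to 1.37, Mme -0.58 to 0.95 and Miox -0.47 to 1.19. Further ranges were Hnf4a -0.092 to 1.16, Abcc4 -0.45 to 0.17, Gatm -0.36 to 2.02, Mep1a -0.64 to 1.66, Slc13a1 -1.05 to 2.27 and Slc13a2 -0.36 to 2.21. Further ranges were Slc22a7 -1.31 to 3.0, Slc6a18 -0.70 to 1.63 and Slc7a8 -0.59 to 1.95. With 2 arrays a group, a single array decides these signs.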
